A study of Mus musculus with 16 samples.

Results

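The 8 genes named as thalamic neuron genes, Tcf7l2, Rora, Slc17a6, Prkcd, Calb2, Ntng1, Plekhg1 and Synpo2, were followed in brain RNA from 16 mice. The members were the entries of the deposited count table with these gene symbols. All 8 were present among 40481 genes, and all 8 passed the filter on low counts that left 14950 genes for testing. The animals were male C57BL/6J mice (C57BL in the labels) bought at 18 months of age, housed for 2 weeks and then divided into 2 groups of 15 matched for body weight. From each group 8 mice were chosen for sequencing, and how they were chosen is not given in the sources used here. The adropin group (n = 8) received a daily intraperitoneal injection of the peptide adropin(34-76) at 90 nmol/kg/d over 4 weeks, suspended in saline with bovine serum albumin, and the saline group (n = 8) received that diluent alone. All animals had also gone through behavioural tests, and no genetic alteration was involved. RNA was made from snap-frozen brain tissue and selected for poly-A tails, and the part of the brain that was taken is not given in the sources used here. Mice are called by the 2 numbers in their labels, such as 2_3, whose meaning is not stated.

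The thalamus relays sensory, motor and limbic signals to the cerebral cortex through glutamatergic relay neurons. These neurons are known for the transcription factors Tcf7l2 and Rora, for the vesicular glutamate transporter encoded by Slc17a6 and for the kinase encoded by Prkcd, whereas most cortical excitatory neurons load glutamate with the transporter encoded by Slc17a7. None of these genes belongs to the thalamus alone: Tcf7l2 is also used by oligodendrocytes, Rora by Purkinje cells and cortical neurons, Calb2 by interneurons and cerebellar granule cells, and Slc17a6 by hypothalamic, midbrain and hindbrain neurons. In bulk RNA, fewer cells of a type and less RNA per cell cannot be told apart.

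The name of the set was checked against other markers. Gbx2, a transcription factor of thalamic development, was listed at 0 in 6 mice and reached at most 0.561 CPM (counts scaled to the library total and by TMM, a normalization across libraries). Slitrk6, a synaptic adhesion gene, reached at most 0.733 CPM. The other 10 of 12 further genes known from thalamus averaged 2.71 CPM (Tnnt1) to 104.9 CPM (Cacna1g), and many of them are used outside the thalamus too. Slc17a7 stood between 1675 and 2275 CPM in every mouse, whereas Slc17a6 stood between 12.0 and 45.5 CPM. Cortical markers were thus abundant in every mouse, while the further thalamic genes ran from near 0 to over 100 CPM. The 8 genes are described here by their symbols rather than as a cell type.

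Library totals ran from 35185051 to 70314050 counts in the adropin group and from 35026503 to 47245785 in the saline group. Some saline mice stood apart in markers of other brain regions. In mouse 8_3 the summed level of 5 cerebellar genes was 301.4 CPM, against 11.2 CPM in the next mouse, and Cbln3, a secreted protein of cerebellar granule cells, was at 125.1 CPM against at most 2.77 CPM elsewhere. Ttr, the carrier protein made by choroid plexus, was at 2398 CPM in that mouse. In mouse 2_3 the sum of 7 midbrain and hindbrain genes was 8.15 CPM against 4.18 CPM in the next mouse, most of it the glycine receptor gene Glra1 at 6.20 CPM. Of 6 habenula genes, the transcription factor gene Pou4f1 (2.70 CPM against at most 1.27 CPM elsewhere) and Chrna3 (1.41 against at most 0.883 CPM) were highest in 2_3, while the sum of the list, most of it Nwd2, was highest in mouse 6_1 (70.1 CPM). Of the 12 further thalamic genes, Gbx2 (0.561 CPM), Lef1 (13.2 CPM) and Tnnt1 (3.68 CPM) were also highest in 2_3. Cacna1g was lowest there (88.7 CPM), and the sum of that list was highest in mouse 1_3 (348.4 CPM). Mouse 5_3 had the highest sums of 8 hypothalamic genes, 9.75 CPM against 4.01 CPM next, and of 6 hippocampal genes, 95.6 CPM, followed by 90.7 CPM in mouse 2_3. Mouse 5_4 was second for Ttr at 310.6 CPM. Mice 2_3 and 8_3 held the highest value of 5 of the 8 genes between them, and the main results are given with and without this pair, a choice made after the values were seen. The part of tissue composition in the results was not tested.

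Adropin and saline were first compared for each of the 8 genes, to see whether treatment went with a change in their level. Prkcd and Calb2 were lower in the adropin group at an unadjusted p below 0.05 in edgeR's quasi-likelihood test, and none of the 8 was higher. The count of 2 in 8 stands beside 4.01% of all genes tested past that threshold in either direction and 2.13% of genes lower in adropin. No member passed after Benjamini-Hochberg adjustment. Of all genes tested 0% passed it, and the lowest adjusted p was 0.387. The count was also 2 of 8 without 5_3 (beside 6.56% of all genes), without 5_4 (3.32%) and without both 2_3 and 8_3 (3.05%), where in the last case the genes were Prkcd, lower, and Rora, higher in adropin mice. Over all genes, edgeR gave 599 at the unadjusted threshold, 280 higher and 319 lower (160 higher and 442 lower when scaled by library size only), limma-voom gave 598 with 0 after adjustment, and DESeq2 gave 714 with 5 after adjustment. The median log2 fold change of the 8 genes was -0.05, with 4 above 0, beside a median of -0.0019 for all genes tested.

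**Figure D1:**
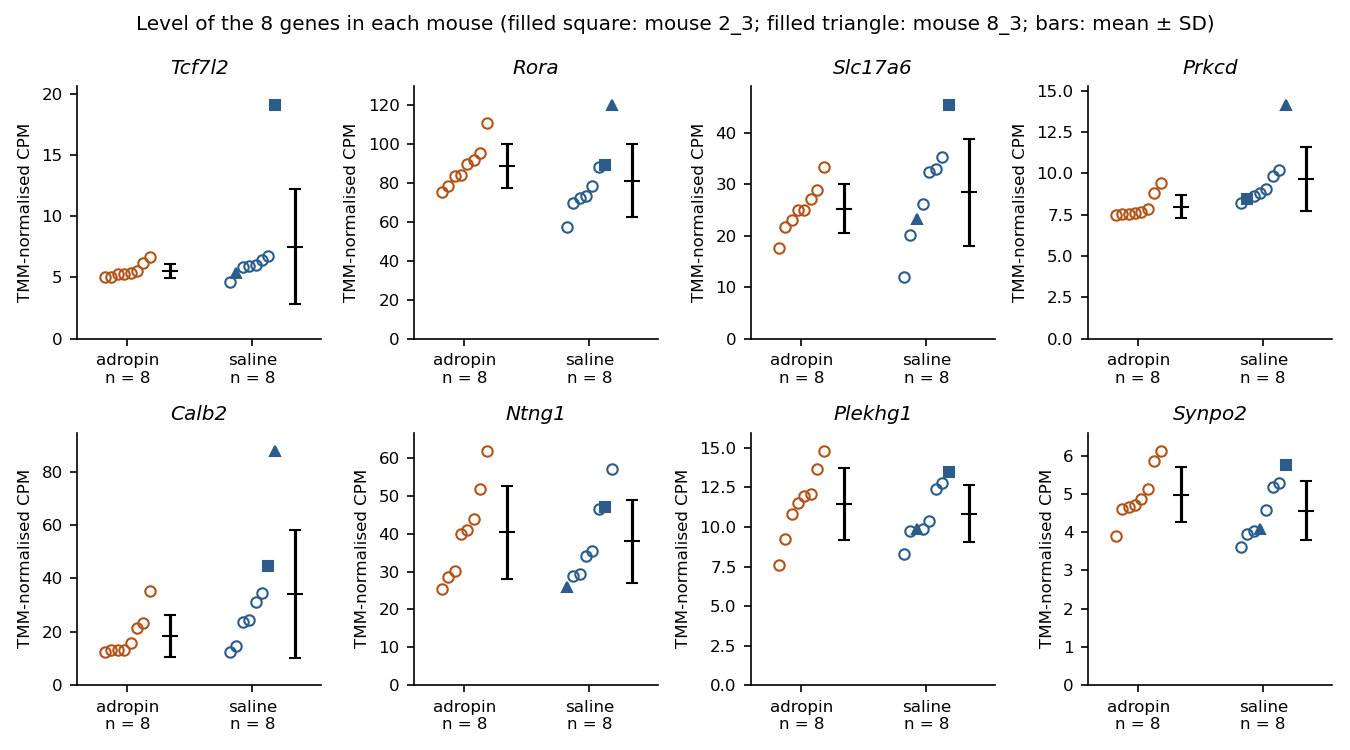
TMM-normalised CPM (vertical axes, starting at 0) of each of the 8 genes in each of the 8 adropin and 8 saline mice, with the mean and SD of each group as bars. Mouse 2_3 stands at 19.1 CPM for Tcf7l2 and mouse 8_3 at 87.6 CPM for Calb2, and the 2 groups overlap for every gene.

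Tcf7l2 (ENSMUSG00000024985, chr19:55741820-55933654, plus strand, GRCm38) encodes an HMG-box transcription factor that acts with beta-catenin in the Wnt pathway. It ranged from 5.04 to 6.68 CPM in adropin mice, with a median of 5.32, and from 4.65 to 19.1 CPM in saline mice, with a median of 5.98. Mouse 2_3 alone held the highest value, followed by 6.71 CPM in saline mouse 5_3, and the remaining mice of the groups overlapped. Adropin over saline, its log2 fold change was -0.44 with a standard error of 0.23 (edgeR p = 0.0747, adjusted p = 0.873), and the exact permutation p was 0.186. Without mouse 2_3 the log2 fold change was -0.08 (exact permutation p = 0.372). Without saline mouse 6_2, the lowest of its group, it was -0.52 (edgeR p = 0.0401, exact permutation p = 0.0312). Mouse 6_2 was picked after the values were seen, and no other single mouse left out took the edgeR p below 0.05. Tcf7l2 did not follow 6 oligodendrocyte genes, whose sum ran from 2745 to 8024 CPM (r = 0.25 over 16 mice, 0.04 without 2_3 and 8_3).

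Rora (ENSMUSG00000032238, chr9:68653786-69388246, plus strand) encodes an orphan nuclear receptor required for Purkinje cell development. Its level ran from 75.4 to 110.9 CPM in adropin mice (median 87.0) and from 57.4 to 120.3 CPM in saline mice (median 76.0). The highest mouse was again a saline mouse, 8_3, while the other saline mice lay at or below 89.3 CPM. The difference was 0.13 on the log2 scale with a standard error of 0.12 (edgeR p = 0.286, adjusted p = 0.875), and the exact permutation p was 0.257. Leaving out mouse 8_3 moved it to 0.23 (edgeR p = 0.0242, exact permutation p = 0.0323), and leaving out both 2_3 and 8_3 moved it to 0.27 (edgeR p = 0.00959, exact permutation p = 0.0147). The antisense gene Gm15511 lies within Rora, and whether reads were counted by strand is not given in the sources used here.

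Slc17a6 (ENSMUSG00000030500, chr7:51622006-51671119, plus strand) encodes the vesicular glutamate transporter VGLUT2. Adropin mice ranged from 17.6 to 33.5 CPM with a median of 25.1, and saline mice from 12.0 to 45.5 CPM with a median of 29.3. Both the highest value, in mouse 2_3, and the lowest, in mouse 5_4, belonged to the saline group, whose range enclosed all adropin mice. Its log2 fold change was -0.17 with a standard error of 0.20 (edgeR p = 0.396, adjusted p = 0.878), with an exact permutation p of 0.692. It was -0.07 without mice 2_3 and 8_3 (exact permutation p = 0.998), -0.04 without 2_3 alone and -0.29 without 5_4.

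Prkcd (ENSMUSG00000021948, chr14:30595354-30626210, minus strand) encodes protein kinase C delta, a diacylglycerol-activated kinase of thalamic relay neurons and of the central amygdala. Its level was 7.51 to 9.41 CPM in adropin mice (median 7.62) and 8.20 to 14.2 CPM in saline mice (median 8.94). In 6 of 8 adropin mice Prkcd lay below every saline mouse, and the remaining ones, 4_3 at 9.41 CPM and 7_4 at 8.80 CPM, lay within the saline range. The log2 fold change was -0.28 with a standard error of 0.10 (edgeR p = 0.0148, adjusted p = 0.873), and the exact permutation p was 0.00855. The highest saline mouse was 8_3, and the difference was -0.18 without it (exact permutation p = 0.0163) and -0.20 without both 2_3 and 8_3 (edgeR p = 0.0232, exact permutation p = 0.0160). With any single mouse left out the unadjusted edgeR p stayed at or below 0.0315. With the first label number as replicate block the difference was -0.17 and no longer past the unadjusted threshold. Prkcd followed the choroid plexus list across mice (r = 0.77 over 16 mice, 0.23 without 2_3 and 8_3), and 5 of 5 tested genes of that list were lower in adropin mice at an unadjusted edgeR p below 0.05, among them Ttr (log2 fold change -4.07). Without mice 2_3 and 8_3 this held for 2 of the 5.

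Calb2 (ENSMUSG00000003657, chr8:110137502-110168210, minus strand) encodes calretinin, a calcium-binding protein. Adropin mice ranged from 12.5 to 35.3 CPM around a median of 14.5, and saline mice from 12.4 to 87.6 CPM around a median of 27.8. Mouse 8_3 was highest and mouse 2_3 second at 44.6 CPM, both above every adropin mouse, while the lowest mouse of all, 8_1, was also a saline mouse. Calb2 differed by -0.89 on the log2 scale, with a standard error of 0.34 (edgeR p = 0.0173, adjusted p = 0.873), whereas the exact permutation p was 0.0676. Without mouse 8_3 the difference was -0.52 (edgeR p = 0.0709, exact permutation p = 0.135), and without both mice it was -0.35 (edgeR p = 0.204, exact permutation p = 0.264). The call on Calb2 at the unadjusted threshold therefore rested on mouse 8_3. Calb2 followed the choroid plexus list at an r of 0.68 (0.50 without both mice) and the olfactory bulb list, whose sum was at most 12.4 CPM, at 0.44 (0.57).

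Ntng1 (ENSMUSG00000059857, chr3:109780040-110144011, minus strand) encodes netrin-G1, a membrane-anchored adhesion protein of thalamocortical axons. It ranged from 25.4 to 61.9 CPM in adropin mice (median 40.5) and from 25.9 to 57.1 CPM in saline mice (median 34.8). The group ranges were nearly the same, with adropin mouse 3_3 and saline mouse 6_1 highest. Between groups the log2 fold change was 0.08 with a standard error of 0.19 (edgeR p = 0.661, adjusted p = 0.926, exact permutation p = 0.717), and it was -0.02 without mouse 3_3.

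Plekhg1 and Synpo2 act on the cytoskeleton. Plekhg1 (ENSMUSG00000040624, chr10:3740364-3967303, plus strand), which encodes a guanine nucleotide exchange factor, ranged from 7.59 to 14.8 CPM in adropin mice (median 11.8) and from 8.28 to 13.5 CPM in saline mice (median 10.1). Synpo2 (ENSMUSG00000050315, chr3:123076519-123236149, minus strand), which encodes an actin-binding protein, ranged from 3.89 to 6.12 CPM in adropin mice (median 4.79) and from 3.62 to 5.76 CPM in saline mice (median 4.33). For both genes the groups overlapped and adropin mice 5_5 and 2_4 were the highest. For Plekhg1 the groups differed by 0.08 ± 0.13 (standard error) on the log2 scale (edgeR p = 0.533, adjusted p = 0.898, exact permutation p = 0.613). For Synpo2 they differed by 0.13 ± 0.11 (edgeR p = 0.283, adjusted p = 0.873, exact permutation p = 0.256).

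**Figure D2:**
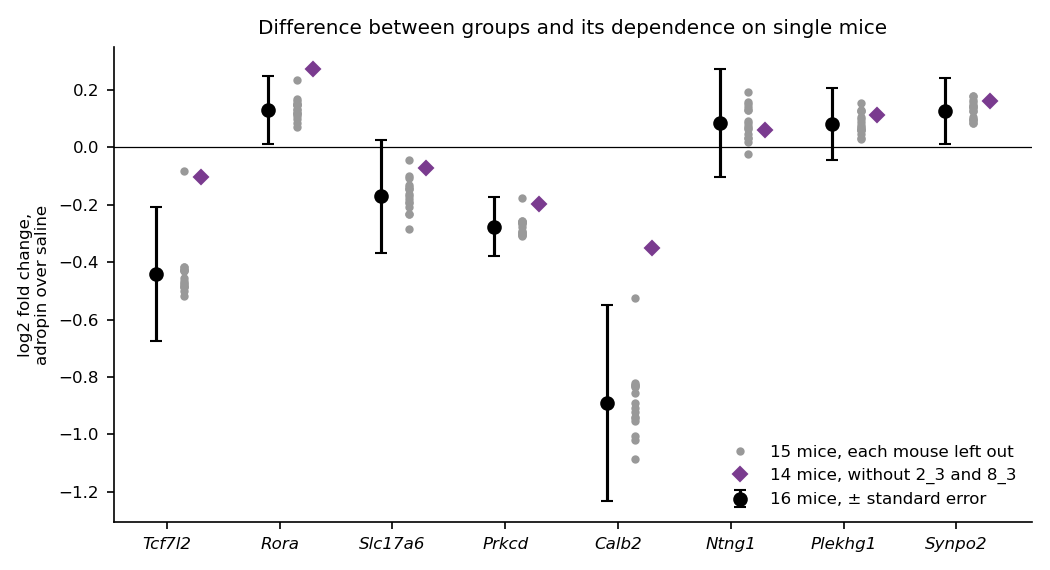
Log2 fold change of adropin over saline for the 8 genes, as fitted by edgeR in 16 mice with its standard error (black), with each mouse left out in turn (grey) and without mice 2_3 and 8_3 (diamonds). Calb2 moves from -0.89 to -0.35 and Tcf7l2 from -0.44 to -0.10 without the 2 mice, while Prkcd moves from -0.28 to -0.20.

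A pair of wider lists gave the setting of these genes. Of 12 further genes known from thalamus, 10 were tested, none was higher and 1 was lower in adropin mice at an unadjusted edgeR p below 0.05. That gene was Rgs16, a regulator of G-protein signalling (log2 fold change -0.24, not past adjustment), and without mice 2_3 and 8_3 the list held 0 such genes. Cacna1g, the T-type calcium channel gene of burst firing, was the most abundant of them at 104.9 CPM on average (log2 fold change 0.03), followed by Plcb4, a phospholipase gene, at 60.4 CPM (0.15). Of 10 genes of the TCF/LEF and beta-catenin pathway, in which Tcf7l2 acts, 9 were tested and 0 passed in either direction. Ctnnb1, which encodes beta-catenin, averaged 300.1 CPM with a log2 fold change of 0.04, and Axin2, a target and inhibitor of the pathway, averaged 28.6 CPM with a log2 fold change of -0.04.

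Per kilobase of exon, the order of mean levels over 16 mice was Calb2 at 15.1 RPKM (7.13 to 50.3), Rora at 6.50 ± 1.18 (SD), Slc17a6 at 4.98, Ntng1 at 4.76, Prkcd at 1.59, Plekhg1 at 1.28, Tcf7l2 at 0.744 and Synpo2 at 0.365 RPKM. Neighbouring means lay within the spread between mice for Calb2 and Rora, for Slc17a6 and Ntng1, and for Tcf7l2 and Synpo2. Calb2 nonetheless exceeded Rora in 16 of 16 mice, and Tcf7l2 exceeded Synpo2 in 16 of 16.

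The spread between mice was then described as the SD of log2 CPM after subtraction of each group's mean. Its median was 0.35 for the 8 genes and 0.20 for all genes tested, and each of the 8 lay above the median of all genes. Calb2 varied most, at 0.74, the 99.1st percentile of all genes tested. Slc17a6 at 0.46, Tcf7l2 at 0.45 and Ntng1 at 0.42 lay between the 91.9th and 94.2nd percentiles, while Plekhg1 (0.27), Rora (0.25), Synpo2 (0.22) and Prkcd (0.20) lay nearer the middle of all genes.

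Leaving out mice 2_3 and 8_3 narrowed the spread of some genes and not of others. Without mice 2_3 and 8_3 the SD of Tcf7l2 fell from 0.45 to 0.16, the 38.0th percentile, and that of Prkcd from 0.20 to 0.12. Slc17a6 (0.44), Ntng1 (0.42) and Calb2 (0.56) kept most of their spread in the other 14 mice. The median of the 8 genes was then 0.24, beside 0.19 for all genes. edgeR's gene-wise dispersion was above the trend with expression for 6 of the 8 genes and for 30.4% of all genes tested.

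**Figure D3:**
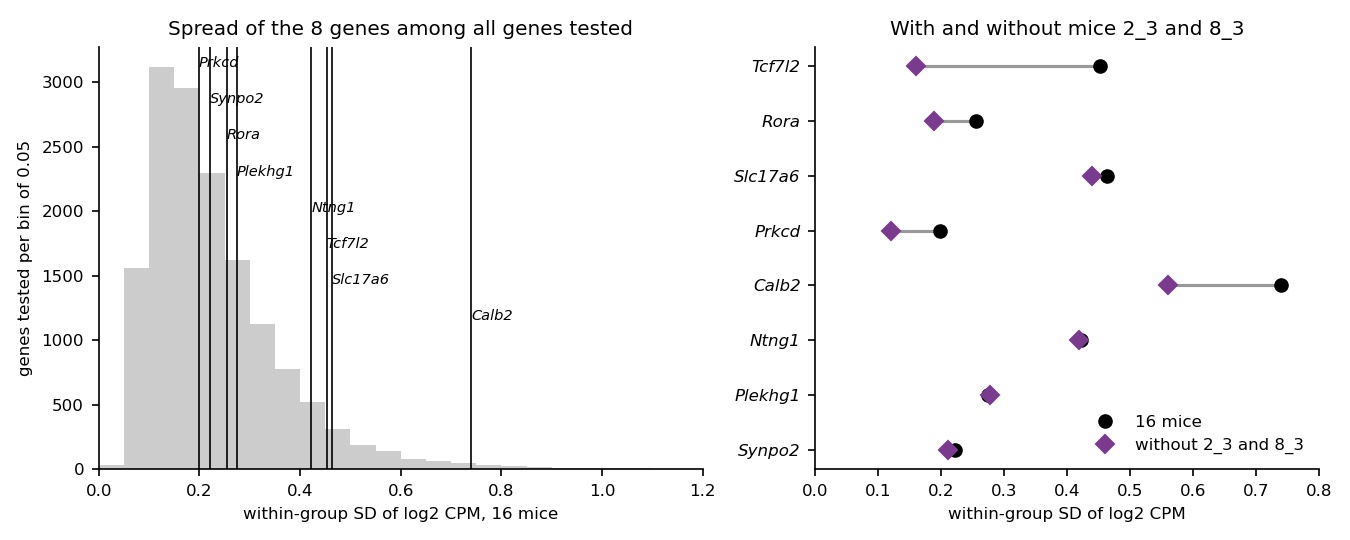
Left, histogram of the within-group SD of log2 CPM over genes tested, cut at 1.2 on the horizontal axis, with the 8 genes as vertical lines. Right, the SD of each gene in 16 mice (circles) and without mice 2_3 and 8_3 (diamonds). Calb2 at 0.74 is farthest right, and Tcf7l2 drops from 0.45 to 0.16.

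The 8 genes did not rise and fall as one. The median Pearson r over their 28 pairs was 0.12, with a range of -0.56 to 0.74 over 16 mice sharing these libraries, and 17 pairs were above 0. A value above 0.5 was found in 4 pairs, or 14.3%, beside 14.1% of all pairs of genes tested. Without mice 2_3 and 8_3 the median was -0.10 and the share above 0.5 was 14.3%, beside 15.9% of all pairs.

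Within the set, Plekhg1, Synpo2 and Slc17a6 formed one group of positive values. Plekhg1 and Synpo2 had an r of 0.74 (0.70 without the 2 mice), Slc17a6 and Plekhg1 one of 0.58 (0.50), and Slc17a6 and Synpo2 one of 0.56 (0.44). The remaining pair above 0.5 in 16 mice was Prkcd and Calb2, at 0.58 (0.29). Ntng1 ran against Rora, at -0.56 (-0.61). Plekhg1 also followed the cerebral cortex list, with an r of 0.77 (0.81), and Calb2 ran against it, at -0.65 (-0.72). Rora followed the further thalamic genes at 0.78 (0.73) and 6 endothelial genes at 0.71 (0.76). The r with the further thalamic genes was 0.12 (-0.29) for Tcf7l2, 0.28 (0.02) for Prkcd and -0.03 (-0.59) for Calb2. It was 0.16 (0.12) for Synpo2, 0.46 (0.50) for Plekhg1 and 0.52 (0.56) for Slc17a6. Slc17a6 had an r of 0.53 (0.58) with the cerebral cortex list. Ntng1 ran against the thalamic genes at -0.73 (-0.82), the endothelial genes at -0.57 (-0.66) and a list of general brain cell markers at -0.61 (-0.67).

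Tcf7l2 and Prkcd went from an r of -0.13 in 16 mice to 0.85 in the 14 mice without 2_3 and 8_3, the highest value of any pair there. Their promoters are shown because these genes moved together most closely in the 14 mice and because Tcf7l2 is the factor that recognises the TCF/LEF core CTTTGA. Each runs 5′ to 3′ over 300 bases, from 250 before to 50 after a RefSeq gene start (GRCm38.p6), with CTTTGA or its reverse complement TCAAAG in capitals.
Tcf7l2, chr19:55741560-55741859, plus strand: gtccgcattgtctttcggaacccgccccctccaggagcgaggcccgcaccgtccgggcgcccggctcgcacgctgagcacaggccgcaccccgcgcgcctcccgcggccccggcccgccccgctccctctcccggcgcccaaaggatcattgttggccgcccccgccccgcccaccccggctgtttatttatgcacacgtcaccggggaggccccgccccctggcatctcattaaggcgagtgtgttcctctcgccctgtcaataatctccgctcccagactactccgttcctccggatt
Prkcd, chr14:30626159-30626458, minus strand: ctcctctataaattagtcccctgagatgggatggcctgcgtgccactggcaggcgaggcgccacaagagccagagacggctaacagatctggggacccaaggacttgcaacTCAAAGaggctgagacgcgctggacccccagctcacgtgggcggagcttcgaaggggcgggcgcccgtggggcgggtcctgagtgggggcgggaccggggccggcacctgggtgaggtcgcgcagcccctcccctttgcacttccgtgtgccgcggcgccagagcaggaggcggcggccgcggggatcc
The Prkcd window held 1 match, on the reverse strand, and the Tcf7l2 window held none. RefSeq windows were matched for 7 of the 8 genes, 10 windows in all, and no other of them held CTTTGA, which occurs in 5251 of 32817 promoters of the same length, or 16%. The nuclear receptor site AGGTCA, which receptors such as that of Rora recognise, was in 0 of the 10 windows and in 16.3% of all promoters. These matches describe letters only.

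**Figure D4:**
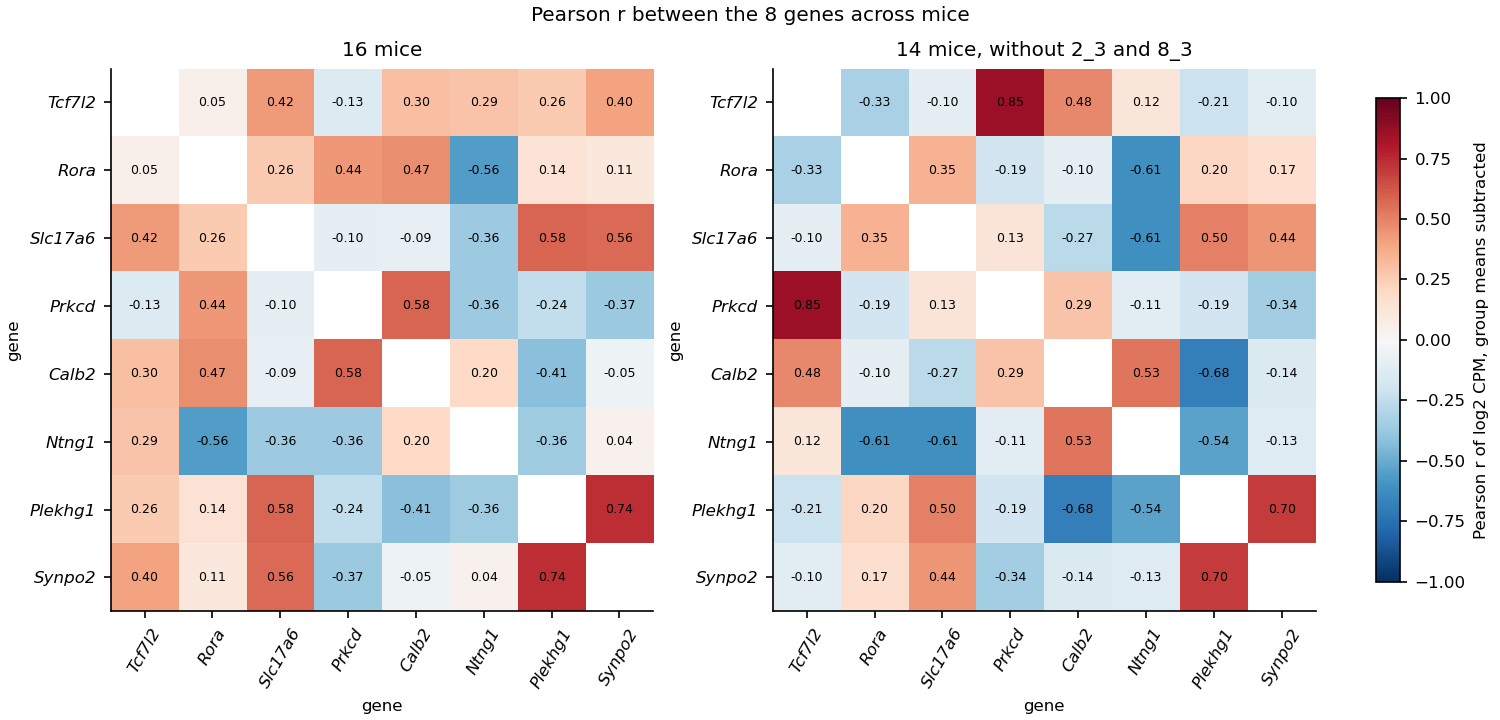
Pearson r of log2 CPM, with group means subtracted, between each pair of the 8 genes in 16 mice (left) and in the 14 mice without 2_3 and 8_3 (right), from -1 (blue) to 1 (red). Plekhg1 and Synpo2 stay at 0.74 and 0.70, while Tcf7l2 and Prkcd go from -0.13 to 0.85.

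The genes most like the 8 as a set were sought by their r, over 16 mice, with a score of the 8 genes. The score averages the 8 genes after group means are subtracted and each gene is set to unit variance. The highest were Clu, which encodes the chaperone clusterin (0.90), Echs1, a mitochondrial enzyme gene of fatty acid oxidation (0.89), and Atp1b2, a sodium pump subunit gene (0.85). They were followed by 4930432K21Rik, Paics, Atp5b, Fzd5 and Kank4, at 0.84 down to 0.80. A like average without subtraction of group means was highest in mouse 2_3, at 1.24, then 0.492 in mouse 8_3, and lowest in mouse 5_4, at -0.694. The score with group means subtracted followed Tcf7l2 (r = 0.70) and Synpo2 (0.66) and hardly Ntng1 (-0.03). As each of these genes is part of the score, its own values enter its r. With the score rebuilt without mice 2_3 and 8_3, the values were 0.77 for Clu, 0.78 for Echs1, 0.59 for Atp1b2, 0.83 for Fzd5 and 0.27 for Atp5b, and 0.60 for Tcf7l2, 0.55 for Synpo2 and -0.12 for Ntng1.

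Each gene also had closer neighbours of its own, looked up after the values were seen. Ntng1 was nearest to Necab2, a neuronal calcium-binding protein gene, with an r of 0.94 in 16 mice and 0.95 without mice 2_3 and 8_3. Slc17a6 was nearest to Slc45a1, a sugar transporter gene (0.93 and 0.92), and Plekhg1 to Aatk, a kinase gene (0.92 and 0.94). The nearest genes of Rora, Synpo2 and Calb2 had an r of 0.90 to 0.92, and of 0.81 to 0.95 without the pair of mice. For Tcf7l2 the nearest gene, Lcmt2, went from 0.84 to 0.05, and for Prkcd the nearest went from 0.87 to 0.48.

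The last comparison asked whether mice with more Fos, the immediate early gene that neurons induce when active, had more of the 8 genes. Fos ranged from 13.4 to 56.8 CPM in adropin mice and from 20.4 to 72.1 CPM in saline mice (log2 fold change -0.997, edgeR p = 0.00221, adjusted p = 0.873, exact permutation p = 0.00886), so group means were subtracted. Plekhg1 and Slc17a6 were higher and Ntng1 lower where Fos was higher, at an unadjusted permutation p below 0.05. That is 3 of 8 genes, beside 19.5% of all genes tested against Fos. None passed Benjamini-Hochberg adjustment over all genes, a share of 0% that held for all genes tested too, 2921 of which passed unadjusted. By Spearman's rho 1 of the 8 passed unadjusted, beside 9.54% of all genes tested, and that gene was Rora, none of the 3 above. By Pearson's r without subtraction of group means 0 passed, beside 5.82% of all genes. Without mice 2_3 and 8_3, Plekhg1 and Ntng1 passed and Slc17a6 did not, beside 21.0% of all genes. With Egr1, another immediate early gene, in place of Fos the count was 3, beside 43.3% of all genes, and with Junb it was 0, beside 4.25%.

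Plekhg1 had a Pearson r with Fos of 0.58 over 16 mice (permutation p = 0.0254, adjusted p = 0.215) and a Spearman rho of 0.49 (permutation p = 0.0698). Without mice 5_4 and 3_3, whose Fos was farthest from the median, its r was 0.37. It was 0.54 within adropin mice and 0.63 within saline mice (exact permutation p = 0.169 and 0.0983).

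Slc17a6 had a Pearson r of 0.54 (permutation p = 0.0342, adjusted p = 0.231) and a rho of 0.31 (permutation p = 0.237). The relation rested on mice 5_4 and 3_3, without which r was -0.03. Within the groups it was 0.87 in saline mice (exact permutation p = 0.00895) and 0.03 in adropin mice (exact permutation p = 0.947), a difference that was not tested. Mouse 5_4 had both the lowest Slc17a6 of all mice and the lowest Fos of the saline group.

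Ntng1 had a Pearson r of -0.53 (permutation p = 0.0457, adjusted p = 0.248) and a rho of -0.44 (permutation p = 0.108). With single mice left out r ran from -0.68 to -0.42, and the permutation p was below 0.05 only without 2_1, 2_3 or 5_5. Its r was -0.34 without mice 5_4 and 3_3, and -0.53 in adropin and -0.52 in saline mice (exact permutation p = 0.174 and 0.196). The sign was thus the same in both groups, with neither group passing alone.

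Rora had a Pearson r of 0.43 (permutation p = 0.105, adjusted p = 0.335), a rho of 0.58 (permutation p = 0.0186, adjusted p = 0.489) and an r of 0.37 without the farthest mice. Synpo2 had an r of 0.43 and a rho of 0.34 (permutation p = 0.111 and 0.205, adjusted p = 0.341 and 0.632), and an r of 0.22 without those mice. Tcf7l2 had an r of 0.12 and a rho of 0.04 (permutation p = 0.589 and 0.866, adjusted p = 0.754 and 0.959), and an r of 0.07 without them. Prkcd and Calb2, the genes lower in adropin mice, had little relation to Fos within groups. For Prkcd r was 0.06 and rho -0.25 (permutation p = 0.795 and 0.329, adjusted p = 0.887 and 0.714), with an r of -0.07 without the farthest mice. For Calb2 r was -0.06 and rho -0.05 (permutation p = 0.833 and 0.848, adjusted p = 0.909 and 0.953), with an r of -0.08 without them. By comparison, 7 other immediate early genes had an r with Fos of 0.70 to 0.93, Arc, a synaptic gene induced by activity, being highest.

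**Figure D5:**
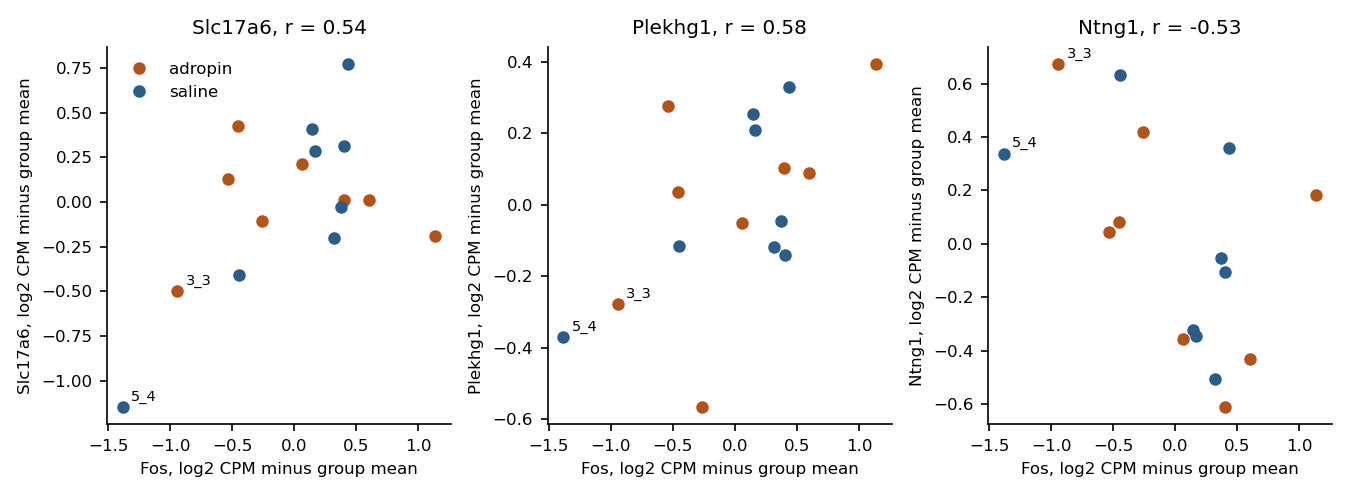
Log2 CPM of Slc17a6, Plekhg1 and Ntng1 (vertical axes) against that of Fos (horizontal axes), each minus its group mean, in 8 adropin and 8 saline mice. Mice 5_4 and 3_3, named in the panels, lie at the low end of Fos, and r for Slc17a6 goes from 0.54 to -0.03 without them.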

How the data were processed

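Poly-A RNA of 16 mouse brain samples was sequenced in paired ends. Per the study's methods, the authors aligned reads to Ensembl release 76 with STAR and deposited raw counts per gene of uniquely aligned, unambiguous reads from featureCounts. The deposited CPM were not used. Of 40757 entries, 276 repeats were dropped. TMM factors were computed in edgeR 4.0.16, 355 genes annotated as rRNA were left out, and the 14950 genes with over 1 CPM in at least 7 mice were tested in edgeR (quasi-likelihood F-test, p-values adjusted by Benjamini-Hochberg). Log2 CPM used a prior count of 2. Exact permutation tests were two-sided over all divisions of the mice, and Fos correlations used 100000 permutations within groups. limma-voom (limma 3.58.1), DESeq2 1.42.0, other scalings, filters, blocks and each mouse left out were alternatives. Within-group libraries differed beyond counting error in all 56 pairs. P-values measure the spread between these samples. Scripts were tested on simulated data. The 8 genes and all lists were chosen with earlier results of these data known. Named were the 8 genes and Fos, the 10 genes most like their mean (of which 2 are not reported here), and from each list the most abundant genes and those with p under 0.05, further names being given where they were chosen after their values were seen, as the markers of mice that stood apart were.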

Additional observations from a re-analysis of the deposited data

Results flagged for a closer look

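In all, 4 values stood apart from the rest of their group by Dixon's test, out of 18 combinations of a group with one of the 8 genes or Fos, where chance gives about 1 in 20, or 0.9. In saline mice, Tcf7l2 was at 19.1 CPM in mouse 2_3, with 6.71 CPM next. Prkcd was at 14.2 CPM in saline mouse 8_3, with 10.2 CPM next. Calb2 was at 87.6 CPM in saline mouse 8_3, with 44.6 CPM next. Calb2 was also at 35.3 CPM in adropin mouse 4_3, with 23.1 CPM next. Of these 4 values, 3 were in saline mice 2_3 and 8_3, which also stood apart in markers of other regions, and the part of those regions in the values was not tested.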

How the results depend on the processing

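The count of members past an unadjusted p of 0.05 between groups was 2 in each fit and 2 to 3 with a mouse left out, while the median log2 fold change of the 8 genes ran from -0.13 to 0.04 with a mouse left out and was -0.18 with the first label number as replicate block. The count over all genes was 599 of 14950, 327 of 14950 with the first label number as replicate block and 1902 of 30210 with the filter lowered to 1 count, and was 1447 without 4_3, 981 without 5_3, 922 without 7_1, 397 without 1_3 and 385 without 2_4. Over 5 pairs of an adropin and a saline mouse sharing the first number, the r of deviations ran from -0.27 to 0.22. Over 17 such pairs sharing the second number it ran from -0.56 to 0.30. Pairs within a group were not examined, so whether the numbers pair the mice is not settled. Mice of both groups shared the first number only for 2, 5 and 7, so the fit with that block compared the groups within those numbers alone. In it Ntng1 reversed to -0.19, Tcf7l2 was -0.77 and past the unadjusted threshold, and Prkcd was -0.17 and no longer past it. With the second number as block Plekhg1 reversed to -0.0042. With a mouse left out Ntng1 ran from -0.0229 to 0.19.

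The count of members correlated with Fos at p below 0.05 was 3, but 1 by Spearman's rho, 0 pooled, 0 with Junb and 3 with Egr1 in place of Fos, 2 without 2_3 and 8_3, and 0 to 3 with a mouse left out (0 without 3_3, 1 without 5_4, 6_1 or 7_1). Weak correlations with Fos changed sign: Tcf7l2 to -0.11 (Egr1 in place of Fos) and -0.13 (without 2_3 and 8_3), Prkcd to -0.25 (Spearman), -0.18 (Egr1) and -0.0393 (without 2_3 and 8_3), and Calb2 to 0.26 (pooled) and 0.0682 (Junb). With a mouse left out they ran from -0.16 to 0.19 for Tcf7l2, -0.0865 to 0.14 for Prkcd and -0.19 to 0.0362 for Calb2. The causes were not tested. Each of the 8 genes had 125 or more counts in every mouse.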
